A study of Sus scrofa with 48 samples.

Results

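The levels of 10 genes of triglyceride metabolism were described in perirenal adipose tissue (PRAT), the fat around the kidney, of 48 pigs. They were PNPLA2, LIPE and MGLL for lipolysis, LPL, FABP4 and CD36 for fatty acid uptake, and AGPAT2, DGAT, DGAT2 and PLIN1 for storage. The array files write DGAT1 as DGAT, and that name is kept here. Members were the probes whose gene name in the scanner files is 1 of these 10 symbols, which gave 37 of the 60306 probes on the array. Of these, 35 were among the 38142 probes kept by the authors and tested, and the other 2, a PNPLA2 and an AGPAT2 probe, were described apart.

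The pigs (Sus scrofa) were 132 days old and were fed freely. They came from a line with low residual feed intake (RFI, the feed eaten beyond that predicted from growth and maintenance; RFIneg in the labels) or a line with high RFI (RFIpl). Each line received a diet high in fat and fiber (HF) or a diet low in fat and fiber with starch as the main energy source (LF). Each of the 4 combinations of diet and line held 12 pigs, with 1 array per pig, so that 24 pigs per diet and 24 per line were compared. No transgene, deletion or drug was involved, and every pig received 1 of the diets.

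Fat cells hold triglyceride in a lipid droplet. AGPAT2 adds the second fatty acid to the glycerol backbone and the DGAT enzymes add the third, while PLIN1 coats the droplet and controls the access of lipases. During lipolysis PNPLA2 cleaves the first fatty acid from a triglyceride, LIPE (hormone-sensitive lipase) acts mainly on the diglyceride that remains, and MGLL cleaves the last fatty acid from the monoglyceride. LPL releases fatty acids from circulating lipoproteins, CD36 takes them up at the cell membrane, and FABP4 binds them inside the fat cell.

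Each value is the log2 spot signal minus the median of its array, so it is a level relative to the median probe, and levels of different probes cannot be ordered against each other. A gene was represented by its brightest tested probe. Called means a raw p under 0.01, a fold over 1.1 and a Benjamini-Hochberg (BH) adjusted p under 0.08 over all tested probes in limma, with diet, line and their interaction in the model. The probe sequences of the genes on which the comparisons turn are given here as read from the scanner files, each 60 bases long. AGPAT2 and MGLL are shown because they were the genes called, PNPLA2 as the first step of lipolysis, and DGAT2 because its probes overlap. Capitals mark the 27 bases shared by both DGAT2 probes.
AGPAT2 (A_72_P154916): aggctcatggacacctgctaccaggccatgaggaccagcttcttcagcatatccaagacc
MGLL (A_72_P370923): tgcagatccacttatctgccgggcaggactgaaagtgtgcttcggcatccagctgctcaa
PNPLA2 (A_72_P076816): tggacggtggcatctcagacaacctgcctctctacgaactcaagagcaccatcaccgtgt
DGAT2 (O8336): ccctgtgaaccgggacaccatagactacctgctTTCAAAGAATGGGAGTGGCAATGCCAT
DGAT2 (A_72_P288804): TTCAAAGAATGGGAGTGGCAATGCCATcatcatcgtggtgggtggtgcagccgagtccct
Members of 1 gene are therefore not always separate measurements. Besides this pair, LIPE probes O11623 and A_72_P223552 shared 58 bases, and FABP4 had pairs sharing 39 and 27 bases. MGLL and DGAT had a single probe each.

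Markers of fat cells were detected. Among 10 adipocyte markers tested, the brightest were ADIPOQ (adiponectin) and CIDEC, a droplet protein, at mean levels of 10.18 and 9.91. RETN (resistin) was well above background on 30 of 48 arrays. The adipocyte markers had a mean level of 4.78 in HF and 4.97 in LF pigs. Fibroblast and preadipocyte markers had 6.28 and 6.097. Levels of different probes cannot be ordered, so the share of each cell type was not tested. Muscle markers stood apart in 1 pig, LF low RFI replicate 3, at a mean level of 3.28 against 2.37 in the next pig and a median of 1.66. The same 2 genes were called by diet without this array. Every slide of 8 arrays held 2 pigs of each group, and no kept spot was saturated. The median signal of an array lay between 115 and 178.

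AGPAT2 and MGLL were the members called by diet, and both were lower in HF pigs. This was 2 of 10 genes, against 19.3% of all 8642 named genes called lower and 6.26% called higher. LIPE was not counted, although a brighter unnamed spot with the bases of its brightest probe was called lower. No member was called higher. A negative difference was found for 9 of the 10 genes, with a median of -0.17 against -0.05 over all named genes. The share of all named genes with a negative difference is not given here. When arrays were centred on the spike-in controls, RNA of known amount added to each sample, in place of the array median, the median over all tested probes moved from -0.02 to 0.12, the median of the 10 genes to -0.03, and none of them was called. PNPLA2, LIPE, FABP4, CD36 and PLIN1 then had positive differences at their brightest probes.

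**Figure D1:**
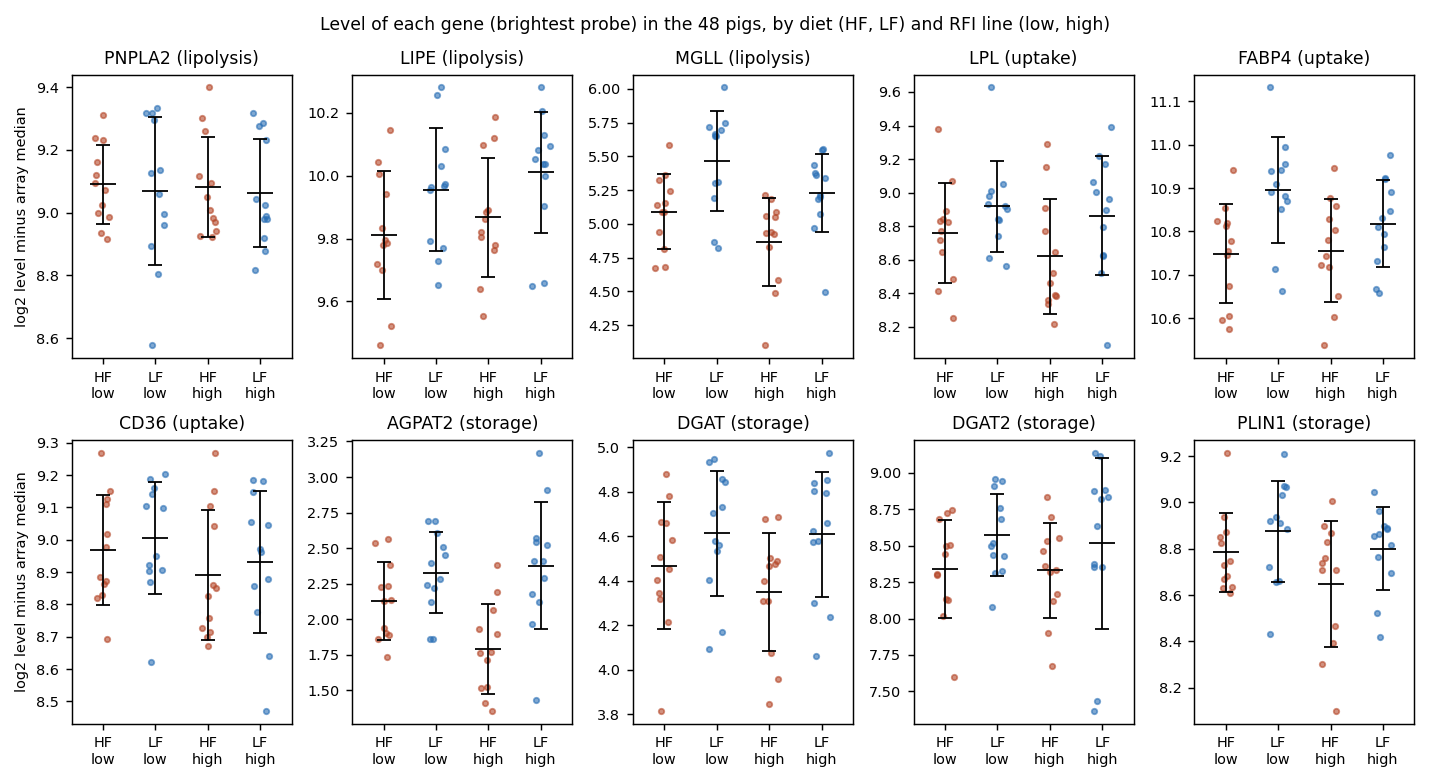
Level of each gene at its brightest probe (log2 minus array median; each panel has its own axis) in HF pigs (red) and LF pigs (blue) of the low and the high RFI line, 12 pigs a group, with bars for mean and SD. The groups overlap in every panel, and the means of AGPAT2 and MGLL lie lower in HF pigs in both lines; under spike-in centring these genes stay lower but are not called, and the means of LIPE, FABP4, CD36 and PLIN1 turn to slightly higher.

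Of the lipolysis genes, MGLL fell in HF pigs. Its level ran from 4.10 to 5.58 (median 5.05) under HF feeding and from 4.50 to 6.01 (median 5.35) under LF feeding. The diets overlapped, but the LF mean exceeded the level of 22 of the 24 HF animals. The means were 4.98 ± 0.32 (SD, n = 24) and 5.35 ± 0.35, a difference of -0.37 ± 0.09 (SE) or 1.29-fold (BH p = 0.0016). It was negative on all 6 slides, from -0.64 to -0.04. A second spot carries the same bases without a gene name and gave -0.36 ± 0.09 (BH p = 0.0024), with r = 0.99 between the spots over the 48 arrays. With spike-in centring MGLL differed by -0.22 (BH p = 0.089) and was not called.

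LIPE was near the limits of the call. Its brightest probe gave 9.84 ± 0.19 in HF and 9.98 ± 0.19 in LF pigs, a difference of -0.14 ± 0.06 with BH p = 0.046, but the raw p of 0.0138 missed the threshold. HF pigs ran from 9.46 to 10.19 (median 9.81) and LF pigs from 9.65 to 10.28 (median 10.02), so most of both ranges overlapped. The 4 LIPE probes differed by -0.18 to -0.14, and 1 of them, O11623, was called (-0.17 ± 0.06, BH p = 0.03). An unnamed spot with the bases of the brightest probe was called as well (-0.18 ± 0.06, BH p = 0.015), at r = 0.92 between the spots. That spot was slightly brighter (mean level 9.97 against 9.91) and did not stand for LIPE because it carries no gene name. With spike-in centring it gave -0.04 and was not called. Of the 35 tested member probes, 4 were called lower, against 15.5% of all tested probes, and none was called higher, against 8.97%. The LIPE difference was -0.26 among arrays scanned on the first day and -0.03 on the second, and it was 0.0025 (BH p = 0.98) with spike-in centring.

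PNPLA2, which starts lipolysis, was not called and had the smallest difference of the 10 genes. HF pigs ran from 8.92 to 9.40 (median 9.06) and LF pigs from 8.58 to 9.33 (median 9.03). The HF range lay almost wholly inside the LF range, and the LF mean exceeded the level of 12 of the 24 HF animals. The difference was 0.02 with a 95% interval from -0.08 to 0.12 (BH p = 0.79). The other tested probe, whose sequence is printed above, gave 0.10 ± 0.08 (BH p = 0.33). With spike-in centring the brightest probe gave 0.17 and was not called, while the other gave 0.24 (BH p = 0.031) and was called higher. Within each array, MGLL minus PNPLA2 was -4.11 ± 0.28 in HF and -3.72 ± 0.32 in LF pigs, a change of -0.39 that no centring of an array can alter. This change was not tested.

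**Figure D2:**
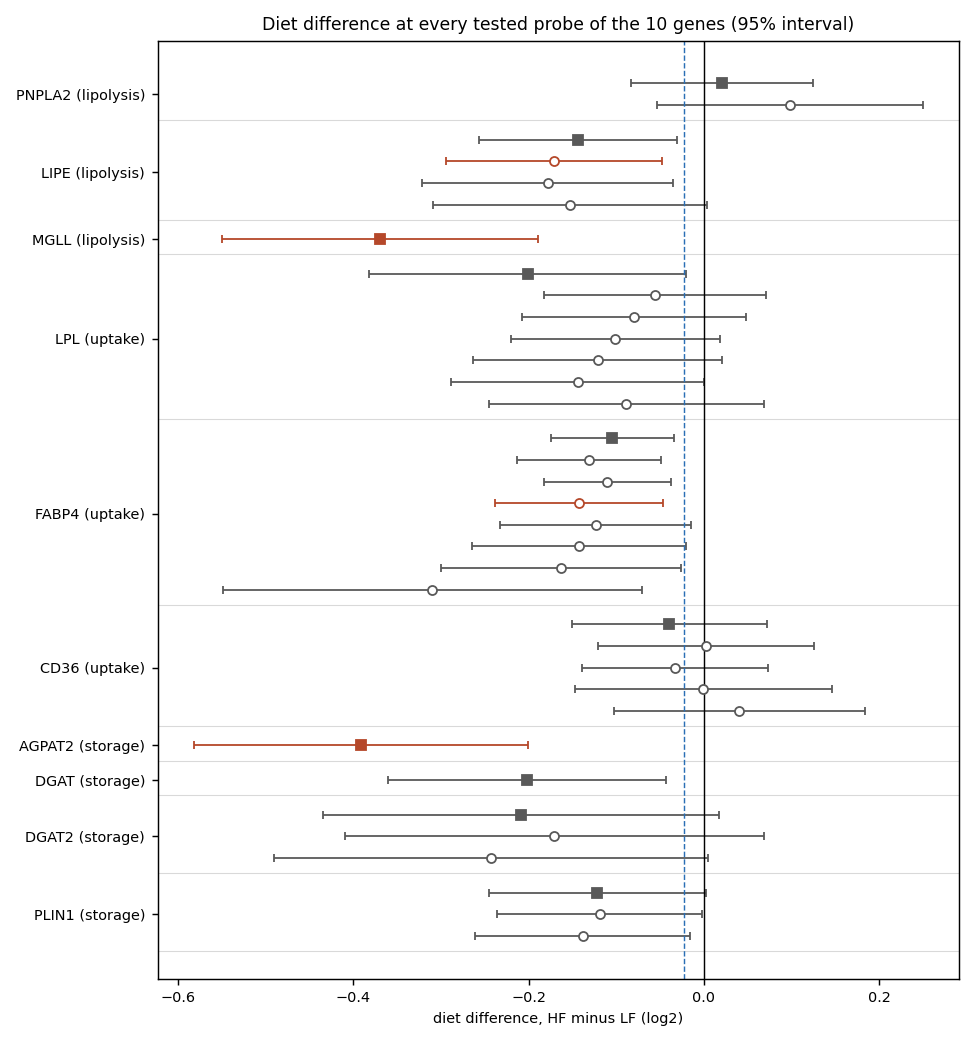
Diet difference (HF minus LF, log2) with its 95% interval at the 35 tested probes, ordered within a gene from the brightest (square) to the dimmest, with called probes in red, 0 as a solid line and the median of all tested probes, -0.02, as a dashed line. AGPAT2, MGLL, 1 LIPE and 1 FABP4 probe were called lower, and 31 of 35 differences are negative, where the median of all tested probes is negative too. With spike-in centring the median of these probes is 0.02, no probe is called lower and 1 PNPLA2 probe is called higher.

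Of the storage genes, AGPAT2 fell in HF pigs and the other 3 were not called. AGPAT2 ran from 1.36 to 2.56 (median 1.92) under HF feeding and from 1.43 to 3.17 (median 2.40) under LF feeding. The diets overlapped, and the LF mean exceeded the level of 20 of the 24 HF animals. The means were 1.96 ± 0.34 and 2.35 ± 0.37 (SD, n = 24), a difference of -0.39 ± 0.09 (SE) or 1.31-fold (BH p = 0.0016). All 6 slides gave a negative difference, from -0.51 to -0.26. With spike-in centring it was -0.24 (BH p = 0.056) and not called. The AGPAT2 probe outside the tested set was well above background on 12 of 48 arrays, with means of -1.69 in HF and -1.39 in LF pigs. Its diet difference was -0.30 ± 0.09 (BH p = 0.019 in a limma fit without the filter).

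DGAT, which makes triglyceride from diglyceride, ran from 3.82 to 4.88 (median 4.46) in HF and from 4.06 to 4.98 (median 4.64) in LF pigs. The difference of -0.20 ± 0.08 had BH p = 0.045 and a raw p of 0.0135, short of the call, and it was -0.06 (BH p = 0.61) with spike-in centring. DGAT2, which carries out the same step, had the widest spread of the 10 genes, with an SD within groups of 0.40. DGAT2 had an SD of 0.59 in LF high RFI pigs and of 0.28 to 0.34 in the other groups. Its 3 probes gave -0.24 to -0.17, and the brightest -0.21 with a 95% interval from -0.44 to 0.02 (BH p = 0.15), or -0.06 (BH p = 0.71) with spike-in centring. HF pigs ran from 7.60 to 8.84 and LF pigs from 7.37 to 9.14. The low end of the LF range came from replicates 3 and 11 of the high RFI line, at 7.37 and 7.43. With array weights the DGAT2 difference was -0.26 (BH p = 0.045 in limma) and not called. PLIN1 differed by -0.12 ± 0.06 (BH p = 0.13), its 3 probes by -0.14 to -0.12, and with spike-in centring its brightest probe by 0.02.

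None of the uptake genes was called at its brightest probe. FABP4, among the most abundant proteins of the fat cell, had levels of 10.75 ± 0.11 in HF and 10.86 ± 0.12 in LF pigs. HF pigs ran from 10.54 to 10.95 (median 10.77) and LF pigs from 10.66 to 11.13 (median 10.88), and the LF mean exceeded the level of 20 of the 24 HF animals. The difference of -0.10 ± 0.04 had BH p = 0.02, but the 1.08-fold change was under the fold asked for a call. Its 8 probes differed by -0.31 to -0.10, and A_72_P673571 was called (-0.14 ± 0.05, BH p = 0.019). The difference of the brightest probe was 0.0058 under quantile normalization, 0.0054 under normexp with quantiles and 0.04 with spike-in centring. The signal of that probe ran from 201800 to 290020 and was not marked saturated on any array.

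LPL, the lipase of the capillary wall, was not called at any of its 7 probes, which gave -0.20 to -0.06. The brightest, designed on the baboon (Papio anubis) sequence, ran from 8.22 to 9.38 (median 8.68) in HF and from 8.09 to 9.63 (median 8.91) in LF pigs, a difference of -0.20 with a 95% interval from -0.38 to -0.02 (BH p = 0.082). Slides ranged from -0.61 to 0.13. The pig probes of LPL gave smaller values, none below -0.14, and with spike-in centring the brightest probe gave -0.05 and the other 6 were above 0. CD36 was not called, with 5 probes between -0.04 and 0.04 and, at the brightest, a 95% interval from -0.15 to 0.07; quantile normalization, normexp with quantiles and spike-in centring turned the brightest probe to 0.01, 0.02 and 0.11.

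Storage was set against lipolysis as the mean of the 4 storage genes minus the mean of the 3 lipolysis genes in each pig. The level of this score has no meaning across probes, but its change between groups does not depend on how an array is centred. It was -2.07 ± 0.22 (SD, n = 12) in HF low RFI pigs, -2.16 ± 0.21 in HF high RFI pigs, -2.07 ± 0.11 in LF low RFI pigs and -2.03 ± 0.23 in LF high RFI pigs. The diet change was -0.07 over all pigs, -0.00064 in the low and -0.13 in the high RFI line. AGPAT2, 1 of the 4 storage genes, differed most between the lines, at -0.20 and -0.58 (interaction BH p = 0.9999 in limma). The SD of single pigs within the groups, 0.11 to 0.23, does not measure the precision of the diet change. The means of the storage, lipolysis and uptake genes, which do depend on the centring, differed by -0.23, -0.16 and -0.12 between HF and LF pigs, and by -0.08, -0.02 and 0.03 with spike-in centring, where the uptake mean turned. No test was made on these scores, since the genes were chosen with results known.

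**Figure D3:**
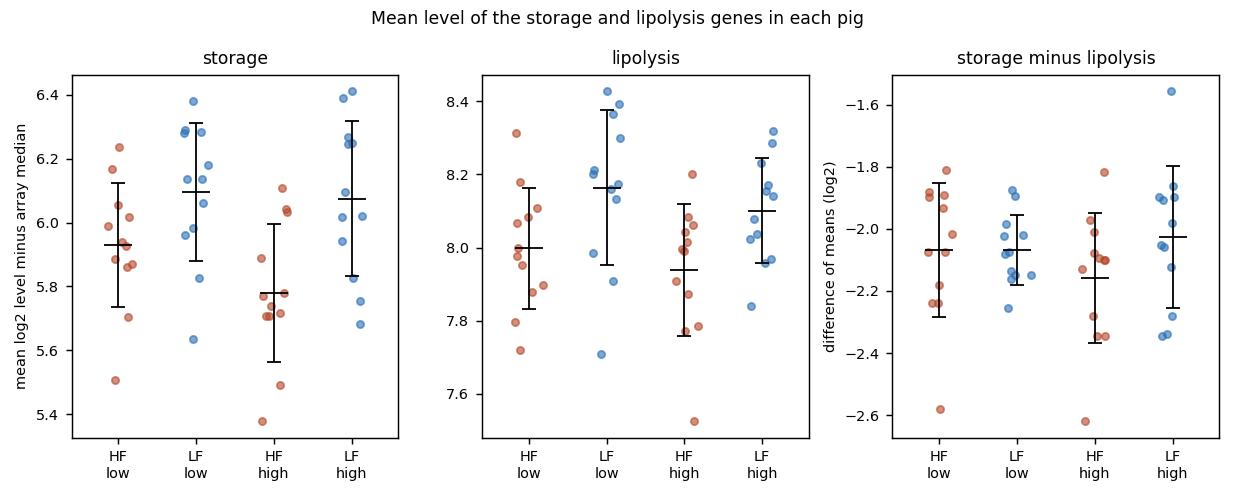
Mean log2 level (minus array median) of the 4 storage genes and of the 3 lipolysis genes, and their difference, in each of the 48 pigs, with mean and SD of the 12 pigs a group. The first 2 panels lie lower in HF pigs (red) than in LF pigs (blue), and the group means of the difference lie between -2.16 and -2.03 and its groups overlap.

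The diet differences were also read within each line, where the background was 10.3% of named genes called lower in low RFI pigs and 13.6% in high RFI pigs. MGLL was called in both, at -0.38 ± 0.13 (BH p = 0.048) in low and -0.36 ± 0.13 (BH p = 0.049) in high RFI pigs. AGPAT2 was called in high RFI pigs, at -0.58 ± 0.13 (BH p = 0.0034), and gave -0.20 ± 0.13 (BH p = 0.35) in low RFI pigs. High RFI pigs ran from 1.36 to 2.38 on the HF diet and from 1.43 to 3.17 on the LF diet, with medians of 1.77 and 2.41. The difference between the lines was 0.38 ± 0.19 with a raw p of 0.0487 and BH p = 0.9999 in limma, so it did not pass. At the dim AGPAT2 probe outside the tested set it had the opposite sign, -0.19 ± 0.19 (limma without the filter). Of all tested probes, 2.17% had an interaction at a raw p under 0.05 and 0 were called. FABP4 was called in low RFI pigs (-0.15 ± 0.05, BH p = 0.049) and gave -0.06 ± 0.05 in high RFI pigs, with a raw interaction p of 0.235. With the low RFI pigs fitted alone FABP4 was not called (BH p = 0.077).

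**Figure D4:**
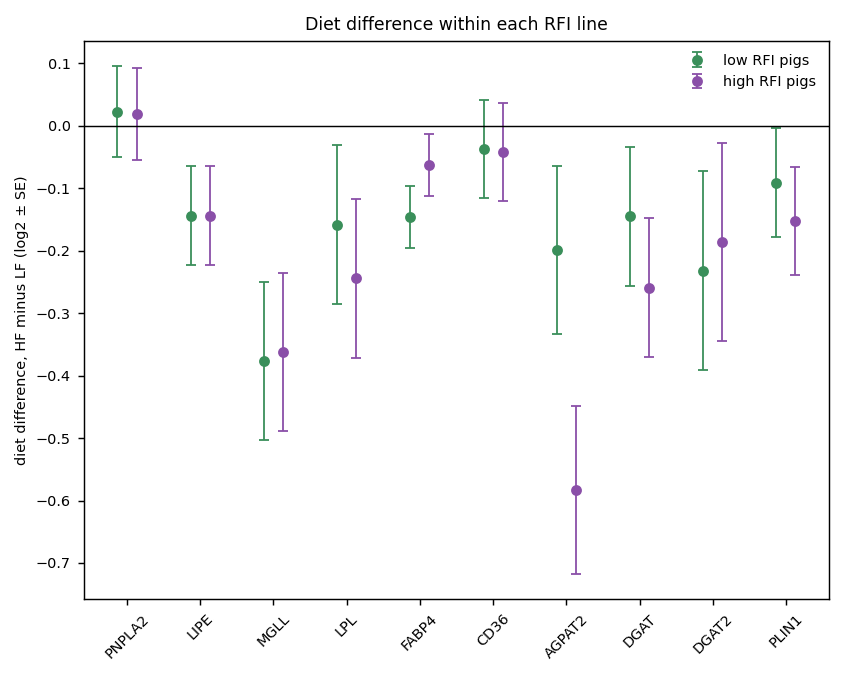
Diet difference (HF minus LF, log2 ± SE) of each gene at its brightest probe in low RFI pigs (green) and high RFI pigs (purple), 12 pigs per diet and line. AGPAT2 shows -0.20 and -0.58 and the difference between the lines is between -0.08 and 0.11 for the other genes; with spike-in centring the differences of LIPE, FABP4, CD36 and PLIN1 over both lines are above 0.

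Between the lines, none of the 10 genes was called at its brightest probe, against 3.27% of all named genes (limma; 1 of the 10 genes, MGLL, had a raw p under 0.05, against 12.1% of all named genes). MGLL was 0.23 ± 0.09 higher in low RFI pigs with a raw p of 0.0124 and BH p = 0.19, and its unnamed twin spot gave 0.25 (BH p = 0.16). With the replicate number added to the model MGLL was called by line, but no label says what that number shares. The line differences of MGLL were 0.23 on the HF and 0.24 on the LF diet. One of the 35 probes was called, against 3.6% of all probes, namely FABP4 A_72_P611338 at 0.22 ± 0.07 (BH p = 0.075). The 8 FABP4 probes were all on the same side but ranged from 0.04 at the brightest to 0.28. Their raw p in limma ran from 0.0027 at A_72_P611338 to 0.32 at the brightest, the probe used in the gene count. The median over the 10 genes was 0.07 against 0.004 over all named genes.

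Other genes of the same pathways were counted at their brightest tested probes, beside the 19.3% of all named genes called lower and 6.26% called higher. In the lipolysis pathway 2 of 17 genes fell and 1 rose in HF pigs, with a median of 0.04. PNPLA3, a relative of PNPLA2, fell by 1.23 ± 0.20 on the log2 scale (BH p = 1.6e-05), from 6.08 ± 0.63 to 4.85 ± 0.85. PRKAR2A, a regulatory subunit of protein kinase A, fell by 0.18 ± 0.05, and NPR1, a receptor of natriuretic peptides, rose by 0.23 ± 0.06. ABHD5, the activator of PNPLA2, gave 0.20 ± 0.13 (BH p = 0.24) and was not called. With spike-in centring PNPLA3 stayed called at -1.09, 6 of the 17 were called higher, and PRKAR2A was at -0.04 and not called.

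In the triglyceride synthesis pathway 4 of 17 genes fell and 2 rose, against 19.3% and 6.26% of all named genes, with a median of -0.08. AGPAT1, which carries out the same step as AGPAT2, fell by 0.40 ± 0.07 (BH p = 2.3e-05) and stayed called with spike-in centring at -0.25. Next lowest were GPAM, a glycerol 3-phosphate acyltransferase, and GPD1, which makes glycerol 3-phosphate, each at -0.22; with spike-in centring each gave -0.07 and was not called. AGPAT9, a glycerol 3-phosphate acyltransferase now named GPAT3, rose by 0.58 ± 0.18 (BH p = 0.01) and LPIN3, a phosphatidate phosphatase, by 0.25 ± 0.07. Both stayed called with spike-in centring, at 0.73 and 0.40.

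Of the lipid droplet pathway, 6 of 15 genes fell and 0 rose in HF pigs, against 19.3% and 6.26% of all named genes, with a median of -0.14. METTL7B (-1.19 ± 0.34), HSD17B13 (-0.42 ± 0.12) and CIDEA (-0.42 ± 0.10), all found on lipid droplets, had the lowest values. CIDEC, which enlarges droplets, gave -0.24 ± 0.07, with means of 9.79 ± 0.25 in HF and 10.03 ± 0.23 in LF pigs, and METTL7B varied widely in LF pigs (SD 1.53). PLIN2, a droplet coat protein, was the member of these lists that was called by line, at 0.66 ± 0.13 higher in low RFI pigs (BH p = 0.0014). With spike-in centring 2 of the 15 stayed called lower, METTL7B at -1.04 and CIDEA at -0.27, and 1 was called higher.

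In the uptake pathway 3 of 18 genes fell and 0 rose, against 19.3% and 6.26% of all named genes, with a median of -0.12. The share called lower was below that of all named genes. Among them APOE, an apolipoprotein, fell by 0.28 ± 0.07 and CAV2, a membrane caveolin, by 0.18 ± 0.05. ANGPTL4, an inhibitor of LPL, gave 0.24 ± 0.10 (BH p = 0.069) and was not called. With spike-in centring 1 of the 18 was called lower and 2 were called higher, and APOE (-0.14) and CAV2 (-0.04) were not called.

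Markers of some cell types differed by diet, and the counts are set beside the 19.3% of all named genes called lower and 6.26% called higher. Of 10 adipocyte markers 5 fell and 0 rose, at a median of -0.16. Those that fell included LEP (leptin, -0.94 ± 0.15) and PPARG (-0.19 ± 0.07), while ADIPOQ gave 0.08 (BH p = 0.26). The authors reported PPARG raised by the HF diet in this tissue by quantitative PCR. With spike-in centring 1 adipocyte marker was called lower and 1 higher, at a median of -0.02. The mean level of the adipocyte markers per pig ran from 4.43 to 5.12 in HF and from 4.40 to 5.30 in LF pigs. CIDEC and AQP7 stand in these lists and in those of the pathways. Of 10 macrophage markers 8 rose and 0 fell, at a median of 0.68, including C1QC at 0.81, CD163 at 0.70 and MRC1 at 0.66, and 10 of 10 were called higher with spike-in centring. Their mean level ran from 1.996 to 4.42 in HF and from 1.69 to 4.08 in LF pigs. CD68 was well above background on 42 arrays. The part of these markers in the differences of AGPAT2 and MGLL was not tested, and in whole tissue fewer cells of a type and less RNA per cell cannot be told apart.

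The other lists are set beside the same shares, 19.3% of all named genes called lower and 6.26% called higher. In them 0 of 10 fibroblast and preadipocyte markers, 0 of 6 muscle, 0 of 5 adrenal and 0 of 4 mesothelium markers were called by diet in limma. Their medians were 0.21, -0.14, 0.04 and -0.06. One of 8 endothelial markers (CLDN5, 0.30) and 1 of 8 T and NK cell markers (CD3G, 0.34) rose. One of 4 erythrocyte markers (SLC4A1, -0.36) and the only kidney marker tested (AQP2, -0.63) fell. With spike-in centring 3 fibroblast and preadipocyte, 3 endothelial, 6 T and NK cell and 1 adrenal marker were called higher, 0 erythrocyte markers were called, and AQP2 stayed called lower. Quantile normalization called 1 fibroblast and preadipocyte marker and 2 T and NK cell markers higher.

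The 10 genes were then correlated over the 48 pigs with the means of the 4 groups removed. Of 45 pairs, 19 had a BH adjusted p under 0.05 for Pearson's r, all positive, and 23 for Spearman's rho (permutation test, two-sided, 100000 permutations). No share over pairs of other genes stands beside these counts, so they do not set the 10 genes apart. All values of 1 array share its centring, and under quantile normalization 8 pairs passed, 7 of them among the 19, and the other was LIPE with LPL at r = -0.37. PLIN1, which guards the droplet, and PNPLA2, which attacks it, had the highest r, 0.67 (rho = 0.65, permutation p = 1e-05, the smallest possible; BH p = 0.00011), and 0.62 without the 2 pigs farthest from the PNPLA2 median. Under quantile normalization r was 0.49. DGAT and DGAT2 followed at r = 0.66 (rho = 0.54, 0.56 without 2 pigs), LPL and DGAT2 at 0.65 (rho = 0.72, 0.67), and PNPLA2 and CD36 at 0.61 (rho = 0.61, 0.60), each with permutation p = 1e-05 for r. These 4 pairs passed under quantile normalization too, and DGAT with DGAT2, LPL with DGAT2 and PNPLA2 with CD36 were positive on all 6 slides.

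The pairs of the genes called by diet are given here, and no difference between their correlations was tested. For Pearson's r, AGPAT2 passed with LPL (r = 0.38, permutation p = 0.0081, BH p = 0.02), where r was 0.25 without 2 pigs and rho did not pass (rho = 0.30, BH p = 0.072). For Spearman's rho it passed with DGAT (rho = 0.40, permutation p = 0.0053, BH p = 0.014), where r was 0.26 and did not pass (permutation p = 0.075, BH p = 0.13) and was 0.46 without 2 pigs. AGPAT2 and MGLL had r = 0.02 (rho = 0.02, permutation p = 0.87, BH p = 0.91). By both statistics MGLL passed with PLIN1, PNPLA2, DGAT and FABP4, most strongly with PLIN1 at r = 0.59 (rho = 0.51, permutation p = 2e-05, BH p = 0.00018). That r was 0.58 without 2 pigs and 0.47 under quantile normalization. By rho alone MGLL also passed with DGAT2 (rho = 0.37, permutation p = 0.0097, BH p = 0.022), where r was 0.30 and did not pass (permutation p = 0.039, BH p = 0.073). MGLL with FABP4 was the pair of the 19 that did not pass once slide means were removed, where r went from 0.43 to 0.10. LIPE and LPL had the lowest r, -0.16 (rho = -0.17, permutation p = 0.27, BH p = 0.34). The 12 pairs within a role had a median r of 0.27 and the 33 pairs across roles 0.31.

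**Figure D5:**
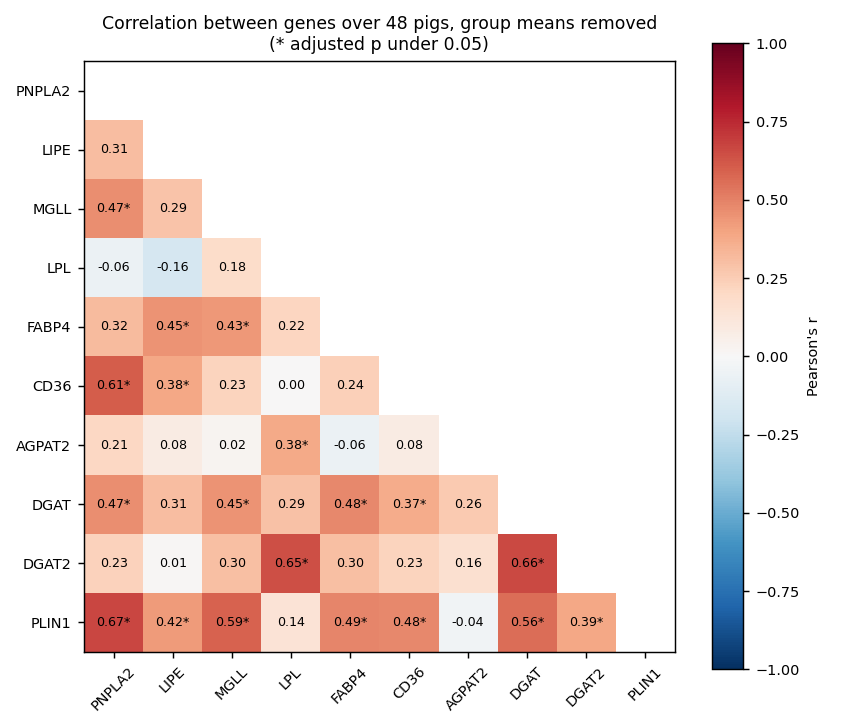
Pearson's r between the 10 genes over 48 pigs after the group means were removed, on a colour scale from -1 to 1, with a star where the BH adjusted permutation p is under 0.05. Values run from -0.16 (LIPE with LPL) to 0.67 (PNPLA2 with PLIN1), 19 pairs carry a star, and 8 pass under quantile normalization.

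Of 8641 other named genes, those whose level followed a member most closely over the same 48 pigs, group means removed, were listed by Pearson's r as a description. For PNPLA2 they were PC (0.73), AQP7 (0.73), PSMC3 (0.71), PEX5 (0.70) and MRPL49 (0.69), none of them called by diet. PC is pyruvate carboxylase and AQP7 the glycerol channel of fat cells. For LPL they were ACSS2 (0.82), SLC2A4 (0.78), DLAT (0.76), NDUFB6 (0.76) and NDUFB3 (0.75), all called lower in HF pigs, at -0.80, -0.77, -0.71, -0.35 and -0.33. ACSS2 makes acetyl-CoA from acetate and SLC2A4 is the insulin-responsive glucose transporter. For DGAT2 they were ATP5B (0.80), FLOT2 (0.79), ATP5O (0.79), NDUFB6 (0.79) and GOT1 (0.78), also all called lower, while DGAT2 itself was not called. NDUFB6 stood in the lists of both LPL and DGAT2.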

How the data were processed

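RNA of PRAT from 48 pigs was labelled with Cy3 and hybridised to single-colour porcine arrays. The scanner files hold spot intensity values (median signal and processed signal) deposited without normalization between arrays, and flags of 0 or 1 for each spot. The authors' table holds log2 values of 38142 probes, which they filtered, log2 transformed and centred on the array median, per the labels in R 2.10.0. Each of its entries was matched to 1 spot by value within 1e-06, and 2 carried the name of that spot, so names were taken from the spots. Genome positions were not used here. The values of 1 gene and 1 probe sequence are not reported here.

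Main values were log2 median signal minus the array median over the 60306 non-control probes. Diet, line and interaction were fitted with limma 3.58.1 (lmFit, eBayes) in R 4.3.3 on 38142 probes, without background subtraction. BH covers all of them. P-values measure the spread between pigs. The members and gene lists were chosen with earlier results of these data known. Named were all members, the 3 highest and 3 lowest called genes of each pathway list, any called by line, and the 5 genes most correlated with PNPLA2, LPL and DGAT2; ABHD5 and ANGPTL4 were named for their roles after their values were seen. Alternatives covered scaling, filter, test, batch, threshold, probe choice and line. Correlations used scipy 1.17.1. The number of arrays limits the precision.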

Additional observations from a re-analysis of the deposited data

Results flagged for a closer look

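The diet difference of AGPAT2 in low RFI pigs minus that in high RFI pigs was 0.38 ± 0.19 (log2), drawn out by a raw interaction p of 0.0487 in limma, with BH p = 0.9999 over all tested probes. Of all tested probes 2.17% had a raw p under 0.05, and 1 of the 10 genes did. The dim AGPAT2 probe outside the tested set gave the opposite sign, -0.19 ± 0.19 (raw p = 0.32 in a limma fit without the filter).

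A PNPLA2 probe outside the tested table (A_72_P178071) carried signal on all 48 arrays, at a mean level of 3.69, well above background. It gave a diet difference of 0.09 ± 0.08 (BH p = 0.44 in a limma fit without the filter), from means of 3.73 in HF and 3.64 in LF pigs.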

How the results depend on the processing

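MGLL and AGPAT2 were called lower in HF pigs in 17 and 16 of 18 alternatives at the main thresholds, and neither reversed. Alternatives that changed only the filter, the test or a block left their estimates at -0.37 and -0.39. Of 180 alternative values of the 10 genes, 166 kept direction and call, 3 lost the call, 3 gained it and 8 reversed. With spike-in centring 0 members were called (MGLL -0.22, AGPAT2 -0.24), and LIPE (0.0025), FABP4 (0.0419), CD36 (0.11) and PLIN1 (0.0246) reversed. FABP4 reversed under normexp with quantiles (0.0054) and quantile normalization (0.0058), as did CD36 (0.0198 and 0.0149). At a fold over 1.5, 0 members were called, where 419 probes in all were. In low RFI pigs alone, with fewer pigs, 1 was called (MGLL), AGPAT2 gave -0.20, and FABP4, called in that line by the fit on all pigs, was not called (BH p = 0.077). LIPE under the replicate block (BH p = 0.026), FABP4 as the mean of its probes (-0.15) and DGAT with array weights (-0.24) were called. The replicate block also gave 1 member called by line (MGLL) against 0. No label says what a replicate number shares, and not every same-numbered pair correlated, so the block was kept as an alternative: the 72 pairs had r from -0.271 to 0.519 (median 0.122, 38 over 0.1), against medians of 0.056 for other pairs on the same slide and -0.017 on other slides, and 16 of 48 arrays matched best with their own number, a hint of pairing from the data and not from the design. Within-group correlations passed for 8 pairs under quantile normalization against 19. The called probes were higher in 36.7% in the main setting, 50.5% at the 75th percentile, 51.9% under quantile normalization, 51.7% under normexp and 93.0% with spike-in centring. The cause of these changes was not tested. Leaving out the pig with the highest muscle markers, chosen after seeing the data, left 2 members called by diet. AGPAT2 had 1 tested probe. Its dim probe outside the tested set also gave a negative diet difference (-0.30), but an interaction of opposite sign (-0.19).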
